A study of Homo sapiens with 9 samples.

Results

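The genes described here build the route that carries newly made proteins from the endoplasmic reticulum (ER) to the Golgi and back. A list of 57 names was matched by Ensembl identifier to 56 genes, because SEC12 is an older name of PREB. They are 56 of the 58395 genes listed in the count data, and all 56 were among the 16761 genes that passed the filter on low counts. RNA was measured in MDA-MB-231, an established line of human triple-negative breast cancer cells, 96 h after reverse transfection with siRNA. There were 3 libraries for the nontargeting control siRNA (siNC) and 3 for each of 2 siRNAs against ZIP7, the zinc transporter that SLC39A7 encodes (siZIP7_1 and siZIP7_2). All groups shared the cell line, the culture medium and the transfection. The siRNA sequences were not analysed here, the cells were a single line, and each library holds a whole culture, so fewer expressing cells and less RNA in each cell cannot be told apart.

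Proteins enter the ER through the SEC61 channel, and cargo that has folded leaves it in vesicles that are shaped by the COPII coat at sites organised by SEC16A and its partners. The GTPase SAR1 starts that coat, SEC23 and SEC24 form its inner layer and pick up cargo, and SEC13 and SEC31 form its outer cage. Receptors such as SURF4, the LMAN1 and MCFD2 pair and the p24 proteins concentrate cargo, while tethers, RAB1 and SNAREs join the vesicles to the next compartment. The COPI coat, which the GTPase ARF1 recruits, returns receptors and escaped ER proteins, the latter held by the KDEL receptors. Secretory cells are known to raise many of these genes together through transcription factors such as XBP1, ATF6 and the CREB3 family.

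The counts on genes summed to between 24153785 and 30454419 reads in a library. SLC39A7 was 321, 343 and 322 CPM with siNC, 35.4, 32.9 and 38.6 CPM with siZIP7_1 and 20.5, 19.5 and 17.6 CPM with siZIP7_2, where CPM is the count per 1000000 reads after TMM scaling between libraries. The knockdown was therefore present in every siZIP7 library, and the level was lower with siZIP7_2 than with siZIP7_1, with a log2 difference of -0.89 (SE 0.066, edgeR adjusted p = 4.89e-13). The cell line's markers VIM, CD44, EGFR and AXL were at 438 CPM or more in every library, and of the 5 markers expected to be low ESR1 and PGR were at 0.582 CPM or less, CDH1 at 0.363 to 4.52 CPM (highest with siZIP7_1), EPCAM at 3.80 to 10.3 CPM and ERBB2 at 56.7 to 91.5 CPM. The leukocyte marker CD3E had at most 1 read in a library, and PTPRC was at 1.02 CPM or less. The 3 fibroblast markers summed to between 52.1 and 57.7 CPM with siNC, 108 and 115 CPM with siZIP7_1 and 173 and 195 CPM with siZIP7_2, nearly all of it COL1A1, while DCN had at most 2 reads in a library. The endothelial markers PECAM1 and CDH5 summed to between 2.88 and 3.31 CPM with siNC, 0.206 and 0.255 CPM with siZIP7_1 and 9.15 and 10.4 CPM with siZIP7_2. The part of other cells in the results was not tested.

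Of the 56 genes, 30 were higher and 12 were lower with siZIP7_1 than with siNC. Across all genes tested, 70.7% passed the same test in this comparison, 34.8% as higher and 35.9% as lower. The 42 calls among the genes of the route are 75.0% of them, a share near that background. Their median log2 fold change was 0.14, beside -0.01 over all genes tested. With siZIP7_2, 24 were higher and 19 lower, while 77.8% of all genes passed, 38.5% as higher and 39.3% as lower. The balance between these directions depended on the filter, since 21 were higher and 23 lower when no genes were filtered out. Both comparisons use the same siNC libraries, so they are not independent of each other. Between the siRNAs, 17 genes were higher and 28 lower with siZIP7_2 than with siZIP7_1, against a background of 78.7% of all genes, 38.1% as higher and 40.6% as lower. That balance was 20 higher and 24 lower with upper-quartile scaling and 13 and 30 without a filter. Genes averaging 10 CPM or more were called more often than all genes, at 80.9%, 85.3% and 85.4% in these comparisons. By direction, 36.8% of them were higher and 44.1% lower with siZIP7_1, and 35.6% and 49.8% with siZIP7_2.

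The changes were mostly small. A fitted change of more than 1.5-fold was seen for 10 of the 56 genes (17.9%) with siZIP7_1 and for 17 (30.4%) with siZIP7_2, where all genes tested gave 41.9% and 50%. The 9748 genes that averaged 10 CPM or more over all libraries, a level that 55 of the 56 genes reached in siNC, gave 33% and 40.5%. Between the siRNAs it was 18 of the 56 genes (32.1%), beside 51.3% of all genes and 42.4% of those averaging 10 CPM or more. When the test itself asked for a change over 1.5-fold, 3 genes were higher with siZIP7_1 (SEC23B, MIA3 and GOLGA2) and 5 lower (TMED10, COPZ2, LMAN1, SURF4 and MCFD2), and 27.7% of all genes passed. The same test with siZIP7_2 called GOLGA2, ARFGAP3 and MCFD2 higher and ARCN1, COPG2, SEC31A, SEC23IP and COPZ2 lower, and 38.3% of all genes passed. Between the siRNAs it called 5 higher and 10 lower with siZIP7_2, beside 40.6% of all genes. GOLGA2 and COPZ2 were called by that test in one direction with both siRNAs, and MCFD2 in opposite directions. Libraries of the compared groups did not overlap in CPM for 44 of the 56 genes with siZIP7_1, 42 with siZIP7_2 and 45 between the siRNAs, where all genes gave 72.1%, 78.7% and 79.7%.

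**Figure D1:**
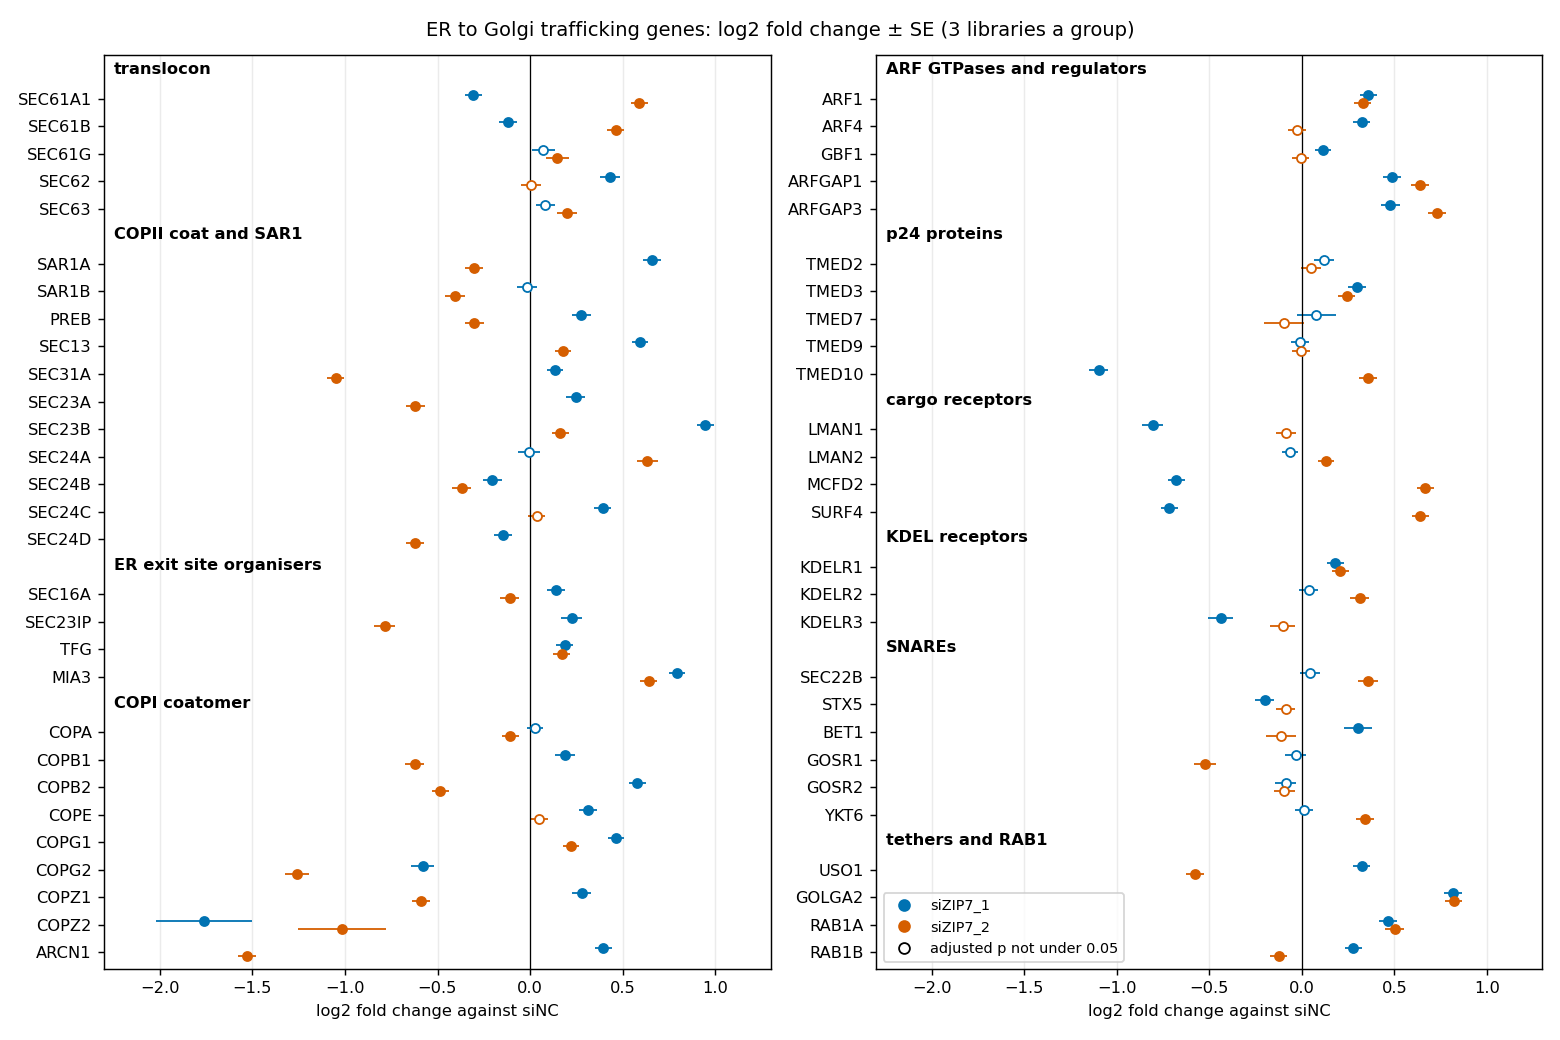
Log2 fold change against siNC (x axis) for the 56 genes, grouped by complex, with siZIP7_1 in blue and siZIP7_2 in orange; bars are standard errors and open points had an adjusted p of 0.05 or more. ARCN1 (-1.53 with siZIP7_2), TMED10 (-1.10 with siZIP7_1) and the COPI and COPII points that lie right of 0 in blue and left of 0 in orange stand out.

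The complexes differed in the direction of the difference between the siRNAs. In the COPII coat 10 of 11 genes and in the COPI coat 8 of 9 were lower with siZIP7_2 than with siZIP7_1, with median log2 differences of -0.47 and -0.68, while 40.6% of all genes were lower, with a median of -0.02, and 48.2% of the genes averaging 10 CPM or more, with a median of -0.10. Upper-quartile scaling removed the calls of SEC24B (-0.17) and COPA (-0.13) from these counts (edgeR adjusted p = 0.117 and 0.242). That of COPA was also lost with DESeq2 size factors (edgeR adjusted p = 0.0535). The 4 cargo receptors were all higher with siZIP7_2, with a median of 1.03, beside 38.1% of all genes as higher. Of 8 other cargo receptors and cycling proteins of the pathway, outside the 56, 2 were higher and 6 lower, with a median of -0.57. The direction was therefore not shared by that mixed set, whose 2 higher genes were RER1 and ERGIC3. In the 4 cargo receptors the difference was not always a rise over siNC. LMAN1 with siZIP7_2 was at -0.08 against siNC, not past the threshold. Altogether 17 genes passed the threshold in opposite directions with the siRNAs and also differed directly, which is 30.4% of the 56, beside 18.7% of all genes tested and 23.3% of those averaging 10 CPM or more. Of these, SEC61A1, SEC61B, TMED10, MCFD2 and SURF4 were lower with siZIP7_1 and higher with siZIP7_2. The other 12 were higher with siZIP7_1 and lower with siZIP7_2, and they were SAR1A, PREB, SEC31A, SEC23A, SEC16A, SEC23IP, COPB1, COPB2, COPZ1, ARCN1, USO1 and RAB1B. In all genes the former order was found in 9.33% and the latter in 9.4%. Their sizes ranged widely, and the calls of SEC61B with siZIP7_1, of RAB1B with siZIP7_2 and of SEC16A with either siRNA were lost when single libraries were left out. Upper-quartile scaling also removed the calls of SEC61B with siZIP7_1 and of RAB1B and SEC16A with siZIP7_2 (edgeR adjusted p = 0.0763, 0.681 and 0.942). The latter calls, of RAB1B and SEC16A, were lost with DESeq2 size factors too. The 30.4% therefore depends on the scaling, and the shares beside it are those of the main scaling.

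**Figure D2:**
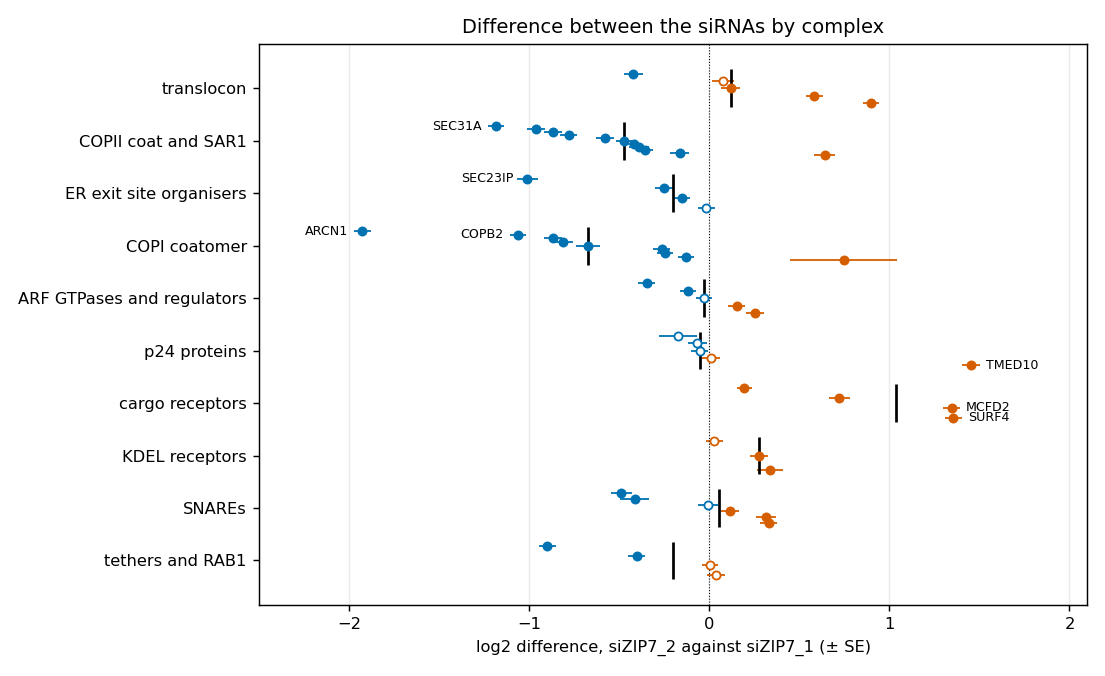
Log2 difference of siZIP7_2 from siZIP7_1 (x axis, bars are standard errors) for each gene of each complex, in orange above 0 and in blue below, with open points where the adjusted p was 0.05 or more and a black tick at each complex's median. Coat genes lie mostly left of 0, to -1.93 for ARCN1, and the cargo receptors right of 0, to 1.36 for SURF4.

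Sequence upstream of these genes was examined for the binding sites of the factors named above. RefSeq promoter windows on GRCh38.p14, from 250 bases before to 50 bases after the gene start, were at hand for 49 of the 56 genes, which had 64 windows. The 8 bases TGACGTGG, the core of the unfolded protein response element (UPRE) that XBP1 and ATF6 are known to bind, were searched on both strands. They stood in the windows of 11 of the 49 genes (22.4%). Among 7861 genes averaging 10 CPM or more that have a window the share was 1.23%, and among all 27305 genes with a window 0.927%. Of the other genes of the pathway 5 of 78 (6.41%) had it. The shorter ACGTG, which lies within the UPRE core, was found in 35 of 49 genes (71.4%) and in 33.7% of the genes averaging 10 CPM or more. Median GC content of the windows was 66.0% for these genes and 65.3% for the genes averaging 10 CPM or more. The ER stress elements ERSE (CCAAT, 9 bases, CCACG) and ERSE-II (ATTGG, 1 base, CCACG) were in none of the 49 genes, and in 0.191% and 0.165% of the genes averaging 10 CPM or more. A match describes letters in the window and does not show that a factor binds there.

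The 12 stretches that hold the UPRE core are printed to show how alike the sites are and where they lie. Each is 30 bases long and written 5′ to 3′ along the gene's strand, with the core in capitals, which reads CCACGTCA where it lies on the opposite strand.
ARF1 chr1:228082681-228082710, gene on the plus strand: cccggaggcgcTGACGTGGccgccgtcaga
COPA chr1:160343227-160343256, gene on the minus strand: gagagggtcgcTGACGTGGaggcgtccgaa
COPB1 chr11:14499841-14499870, gene on the minus strand: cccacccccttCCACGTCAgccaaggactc
COPB2 chr3:139389632-139389661, gene on the minus strand: tcccggaagttCCACGTCAgtcagtctgac
COPB2 chr3:139389825-139389854, gene on the minus strand: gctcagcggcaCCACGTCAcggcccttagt
GBF1 chr10:102245526-102245555, gene on the plus strand: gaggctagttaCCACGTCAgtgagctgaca
KDELR3 chr22:38468039-38468068, gene on the plus strand: ggccgccctggCCACGTCAccgcccggcca
SEC16A chr9:136484707-136484736, gene on the minus strand: tggccctggtgCCACGTCAgccggactgaa
SEC23A chr14:39103221-39103250, gene on the minus strand: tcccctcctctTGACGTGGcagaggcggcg
SEC24A chr5:134648595-134648624, gene on the plus strand: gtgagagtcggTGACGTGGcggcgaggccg
SEC62 chr3:169966779-169966808, gene on the plus strand: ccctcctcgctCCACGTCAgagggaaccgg
STX5 chr11:62832049-62832078, gene on the minus strand: ttacgtgtaggTGACGTGGccgcttccagt
Within 50 bases of the gene start lay 10 of these 12 matches, and the others were 163 bases before the start of COPB2 and 179 bases before that of SEC24A. Where a match fell in several windows of a gene, the nearest RefSeq start was used. That start can differ from the gene start in GENCODE, as for SEC23A and SEC16A. The positions of matches in other genes were not compared. The COPI coat had matches in COPA, COPB1 and COPB2 and the COPII coat in SEC23A and SEC24A. The 11 genes did not move as a block. With siZIP7_1, 7 were higher and 2 lower (median log2 fold change 0.14), with siZIP7_2, 2 were higher and 5 lower (median -0.10), and between the siRNAs 3 were higher and 7 lower with siZIP7_2 (median -0.13). Of all genes tested 34.8% were higher and 35.9% lower with siZIP7_1, 38.5% and 39.3% with siZIP7_2, and 38.1% and 40.6% between the siRNAs. The medians of all 56 genes were 0.14, 0.002 and -0.13 in the same order. Whether the motif had a part in these directions was not tested.

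**Figure D3:**
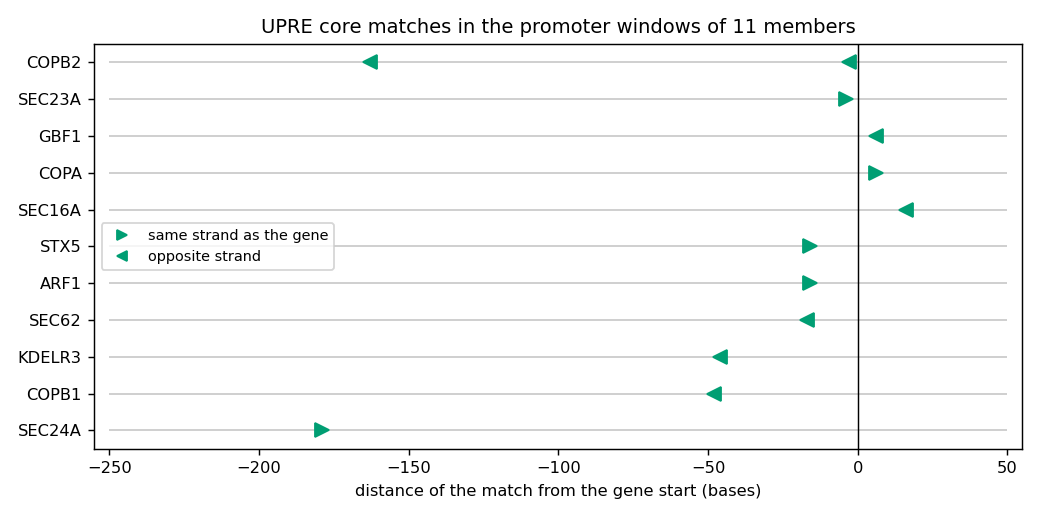
Distance in bases (x axis) of each UPRE core match from the nearest RefSeq start of the gene, for the 11 genes that have one. Arrows point right for the gene's own strand and left for the opposite strand. Of 12 matches, 10 lie within 50 bases of the start at 0.

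In the translocon, the pore subunit SEC61A1 fell with siZIP7_1 and rose with siZIP7_2. SEC61A1 (ENSG00000058262, chr3:128051641-128071683, plus strand, GRCh38 in GENCODE release 29, which also gives the positions that follow) was 414, 428 and 416 CPM with siNC, 348, 336 and 333 CPM with siZIP7_1 and 640.1, 603 and 651 CPM with siZIP7_2. All siZIP7_1 libraries were below and all siZIP7_2 libraries above the siNC libraries. The log2 fold changes were -0.31 (SE 0.046, edgeR adjusted p = 8.53e-07) and 0.59 (SE 0.046, edgeR adjusted p = 1.57e-12), and the log2 difference of siZIP7_2 from siZIP7_1 was 0.90 (SE 0.046, edgeR adjusted p = 9.15e-17). The small subunit SEC61B had the same order of groups, with log2 fold changes of -0.12 and 0.46. The former was lost without siNC replicate 2, siNC replicate 3, siZIP7_1 replicate 1 or siZIP7_1 replicate 2, at edgeR adjusted p-values between 0.0537 and 0.116. Upper-quartile scaling, no filter and at least 10 counts in every library removed it too (edgeR adjusted p between 0.0576 and 0.0763). SEC62, which helps short proteins into the channel, went the other way with siZIP7_1. SEC62 (ENSG00000008952, chr3:169966635-169998373, plus strand) was 86.7, 97.5 and 103 CPM with siNC, 123, 134 and 129 CPM with siZIP7_1 and 95.7, 98.3 and 94.3 CPM with siZIP7_2. The siZIP7_1 values stood apart from the others, with a log2 fold change of 0.43 (SE 0.054, edgeR adjusted p = 3.70e-08), and those with siZIP7_2 fell among those with siNC, with a value of 0.01 (SE 0.054, edgeR adjusted p = 0.914). SEC61G and SEC63, the third channel subunit and the partner of SEC62, were higher with siZIP7_2 at log2 fold changes of 0.15 and 0.20, and neither passed the threshold with siZIP7_1 (0.07 and 0.08). The call of SEC61G was lost when siNC replicate 1, siZIP7_2 replicate 1 or siZIP7_2 replicate 3 was left out, at adjusted p-values between 0.103 and 0.25 from edgeR. Between the siRNAs the difference of SEC63 (0.12) was lost without any of 4 libraries (siZIP7_1 replicates 1 and 3, siZIP7_2 replicates 2 and 3, edgeR adjusted p between 0.126 and 0.224), and that of SEC61G (0.08) passed without siZIP7_2 replicate 2 (edgeR adjusted p = 0.0455).

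In the COPII coat, 7 of 11 genes rose and 2 fell with siZIP7_1, whereas 3 rose and 7 fell with siZIP7_2. Of genes averaging 10 CPM or more, 36.8% rose and 44.1% fell with siZIP7_1, and 35.6% and 49.8% with siZIP7_2. SEC31A (ENSG00000138674, chr4:82818661-82901166, minus strand), which makes the rods of the outer cage, was 353, 328 and 336 CPM with siNC, 371, 379.8 and 366 CPM with siZIP7_1 and 159.6, 165 and 167 CPM with siZIP7_2. The siZIP7_2 libraries lay far below all others. The log2 fold change was -1.05 (SE 0.046, edgeR adjusted p = 3.32e-18), while that of siZIP7_1 was 0.14 (SE 0.045, edgeR adjusted p = 0.00894). SEC13, the partner of SEC31A in the cage, rose with both siRNAs, by log2 values of 0.60 and 0.18, so the cage subunits went apart with siZIP7_2.

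SEC23B (ENSG00000101310, chr20:18507482-18561415, plus strand), one of the inner coat proteins that stimulate SAR1 to hydrolyse its GTP, rose most with siZIP7_1. It was 95.2, 96.4 and 91.0 CPM with siNC, 177, 189 and 179 CPM with siZIP7_1 and 104, 106 and 107 CPM with siZIP7_2. The siZIP7_1 libraries did not overlap any other, and the log2 fold change was 0.95 (SE 0.046, edgeR adjusted p = 5.22e-17). With siZIP7_2 it was 0.16 (SE 0.047, edgeR adjusted p = 0.00253), a call that was lost when no genes were filtered out (edgeR adjusted p = 0.0749). Its paralogue SEC23A had values of 0.25 and -0.62.

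The GTPase SAR1A (chr10:70147289-70170523, minus strand) and its exchange factor PREB followed SEC23A. SAR1A was 189, 202 and 199 CPM with siNC, 307, 329 and 297 CPM with siZIP7_1 and 151, 165 and 164 CPM with siZIP7_2. Its log2 fold changes were 0.66 (SE 0.05, edgeR adjusted p = 1.11e-12) and -0.30 (SE 0.05, edgeR adjusted p = 4.05e-06), and those of PREB were 0.28 and -0.30. SAR1B was not past the threshold with siZIP7_1 (-0.01) and fell with siZIP7_2 (-0.41).

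Of the cargo-binding SEC24 proteins, SEC24A was the COPII gene that was higher with siZIP7_2 than with siZIP7_1, at a log2 difference of 0.64 (SE 0.058, edgeR adjusted p = 4.12e-11). It is annotated head to head with SAR1B, which overlaps 5.35% of its exonic length. SEC24B and SEC24D fell with both siRNAs (-0.20 and -0.37 for SEC24B, -0.15 and -0.62 for SEC24D). Without siZIP7_1 replicate 3 the former value of SEC24D was -0.11 (edgeR adjusted p = 0.0702). SEC24C rose with siZIP7_1 (0.39) and had a value of 0.04 with siZIP7_2, past no threshold. Of its exonic length, 42.9% is also annotated to the gene AC022400.8, so its count could be affected by how shared reads were treated.

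The ER exit site organisers did not move as a set. MIA3 (ENSG00000154305, chr1:222618086-222668012, plus strand), the receptor that brings collagen to the exit site, was 90.1, 87.1 and 87.8 CPM with siNC, 156, 149 and 154 CPM with siZIP7_1 and 139, 136 and 138 CPM with siZIP7_2. Both siZIP7 groups were above siNC with no overlap. The log2 fold changes were 0.79 (SE 0.045, edgeR adjusted p = 1.71e-15) and 0.64 (SE 0.045, edgeR adjusted p = 1.95e-13), and the log2 difference between the siRNAs, -0.15, was no longer past the threshold with upper-quartile scaling. SEC23IP, which binds SEC23, was 95.7, 88.5 and 94.4 CPM with siNC, 105, 119 and 102 CPM with siZIP7_1 and 50.7, 55.3 and 55.6 CPM with siZIP7_2. It rose slightly with siZIP7_1 and fell with siZIP7_2, with log2 fold changes of 0.22 (SE 0.056, edgeR adjusted p = 7.22e-04) and -0.79 (SE 0.058, edgeR adjusted p = 5.12e-13). TFG, which clusters COPII vesicles, rose with both (0.19 and 0.17). SEC16A, the scaffold of the exit site, had log2 fold changes of 0.14 and -0.11, the smallest of the 4 genes. The first was lost without siNC replicate 3 or siZIP7_1 replicate 1 (edgeR adjusted p = 0.0739 and 0.0831). The second was lost without siNC replicate 1, siNC replicate 2 or any siZIP7_2 library (edgeR adjusted p between 0.0683 and 0.19). It was also lost with DESeq2 (DESeq2 adjusted p = 0.161). DESeq2 size factors, upper-quartile scaling, at least 10 counts in every library and 2 groups only removed it too (edgeR adjusted p between 0.0581 and 0.942).

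Among cargo receptors the siRNAs had opposite effects on the soluble-cargo receptor SURF4 and on MCFD2. SURF4 (ENSG00000148248, chr9:133361449-133376166, minus strand) was 387, 403 and 387 CPM with siNC, 239, 244 and 233 CPM with siZIP7_1 and 611, 588 and 632 CPM with siZIP7_2. The groups were fully separated, with siZIP7_1 lowest and siZIP7_2 highest. Its log2 fold changes were -0.72 (SE 0.046, edgeR adjusted p = 2.93e-14) and 0.64 (SE 0.046, edgeR adjusted p = 2.39e-13), and the log2 difference between the siRNAs was 1.36 (SE 0.046, edgeR adjusted p = 5.50e-21).

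MCFD2 (ENSG00000180398, chr2:46901870-46941855, minus strand) works with the lectin LMAN1 to export coagulation factors. It was 319.5, 332 and 333 CPM with siNC, 202, 211 and 201 CPM with siZIP7_1 and 505, 514 and 543 CPM with siZIP7_2, in the same order of groups as SURF4. The log2 fold changes were -0.68 (SE 0.046, edgeR adjusted p = 1.09e-13) and 0.67 (SE 0.046, edgeR adjusted p = 9.85e-14), and MCFD2 was the one gene of the route past the 1.5-fold test in both comparisons with opposite signs. LMAN1 (ENSG00000074695, chr18:59327823-59359962, minus strand) was 141, 145 and 161 CPM with siNC, 82.9, 93.3 and 79.5 CPM with siZIP7_1 and 142, 136 and 144 CPM with siZIP7_2. It fell with siZIP7_1, at a log2 fold change of -0.81 (SE 0.057, edgeR adjusted p = 2.25e-13), whereas the siZIP7_2 values lay within those of siNC or just below them, at -0.08 (SE 0.056, edgeR adjusted p = 0.165). That value passed the threshold when siNC replicate 1 was left out, at -0.13 (edgeR adjusted p = 0.0459), and without a filter, at -0.14 (edgeR adjusted p = 0.0191). The partners MCFD2 and LMAN1 thus fell together with siZIP7_1 and parted with siZIP7_2. LMAN2, a lectin of the same family, was not past the threshold with siZIP7_1 (-0.06) and rose with siZIP7_2 (0.13).

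**Figure D4:**
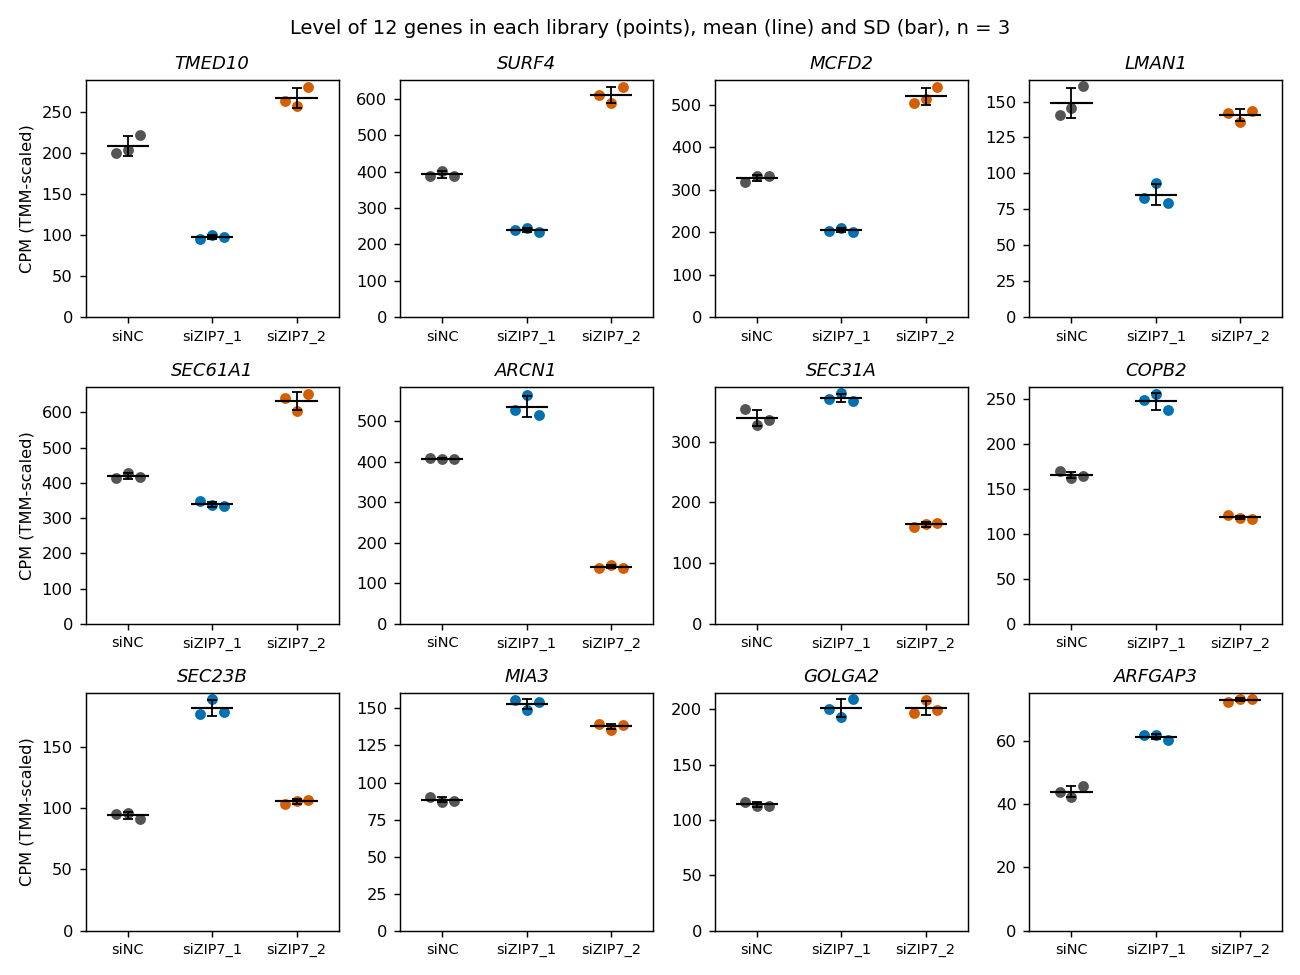
CPM in each library (points) for 12 genes, with group means (lines) and SD (bars, n = 3); every y axis starts at 0 and has its own scale. In TMED10, SURF4, MCFD2 and SEC61A1 siZIP7_1 lies lowest and siZIP7_2 highest, in ARCN1, SEC31A and COPB2 the order is turned round, and MIA3, GOLGA2 and ARFGAP3 are above siNC with both.

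The p24 proteins are small membrane proteins that take lipid-anchored cargo into vesicles, and they work in mixed complexes. TMED10 (ENSG00000170348, chr14:75131470-75176631, minus strand) was the member that moved most. It was 199.9, 204 and 222 CPM with siNC, 95.2, 100.2 and 97.3 CPM with siZIP7_1 and 264, 258 and 281 CPM with siZIP7_2. The siZIP7_1 libraries lay far below siNC, and the siZIP7_2 libraries were all above it. Log2 fold changes were -1.10 (SE 0.05, edgeR adjusted p = 1.07e-17) and 0.36 (SE 0.049, edgeR adjusted p = 1.59e-07), and the log2 difference of 1.45 (SE 0.05, edgeR adjusted p = 7.67e-21) was the highest among the 56 genes. TMED2, the usual partner of TMED10, had log2 fold changes of 0.12 (edgeR adjusted p = 0.0523) and 0.05 (edgeR adjusted p = 0.396). The first passed without siNC replicate 2, siNC replicate 3, siZIP7_1 replicate 1 or siZIP7_1 replicate 3, at edgeR adjusted p-values between 0.0195 and 0.0485. It also passed with upper-quartile scaling, without a filter, with at least 10 counts in every library and in the fit to 2 groups, at edgeR adjusted p-values between 0.0123 and 0.0488. TMED9 had -0.01 and 0.00, with means of 304 ± 11.0 CPM, 302 ± 5.25 CPM and 304 ± 17.5 CPM (± SD over 3 libraries), although with upper-quartile scaling it was called higher with siZIP7_2 (0.10, edgeR adjusted p = 0.0443). TMED7 was also not called, and its siNC libraries were uneven, with a mean of 84.6 ± 22.1 CPM (SD, n = 3). Its log2 fold change with siZIP7_1 (0.08) became 0.28 without siNC replicate 3, that with siZIP7_2 (-0.10) became -0.30 without siNC replicate 1 and the difference between them (-0.18) became -0.27 without siZIP7_1 replicate 3, all then past the threshold. TMED3 rose with both siRNAs (0.30 and 0.24). So of the 5 p24 genes, TMED10 was the one that passed the threshold between the siRNAs.

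All 4 genes of tethering and RAB1 rose with siZIP7_1, as did 36.8% of genes averaging 10 CPM or more. GOLGA2 (ENSG00000167110, chr9:128255829-128275995, minus strand), a tether on the cis-Golgi, was 117, 113 and 113 CPM with siNC, 200.1, 193 and 209 CPM with siZIP7_1 and 196, 208 and 199 CPM with siZIP7_2. Its levels with the siRNAs overlapped each other and lay well above siNC. The log2 fold changes were 0.82 (SE 0.047, edgeR adjusted p = 2.09e-15) and 0.82 (SE 0.047, edgeR adjusted p = 1.63e-15), and the log2 difference between the siRNAs was 0.00 (SE 0.046, edgeR adjusted p = 0.968), whose sign changed in several alternatives. USO1, the long tether that GOLGA2 holds, was 143, 143 and 153 CPM with siNC, 181, 190.4 and 177 CPM with siZIP7_1 and 95.4, 99.4 and 99.0 CPM with siZIP7_2. In contrast to GOLGA2, it rose with siZIP7_1 and fell with siZIP7_2, with log2 fold changes of 0.32 (SE 0.046, edgeR adjusted p = 4.52e-07) and -0.58 (SE 0.048, edgeR adjusted p = 5.63e-12). The GTPase RAB1A rose with both (0.47 and 0.50), and RAB1B had values of 0.28 and -0.13, the latter lost without siNC replicate 2 or siZIP7_2 replicate 2 (edgeR adjusted p = 0.0516 and 0.0803). That call of RAB1B was also lost with DESeq2 size factors, upper-quartile scaling or at least 10 counts in every library (edgeR adjusted p between 0.0698 and 0.681). Other annotated genes cover 22.9% of the exonic length of RAB1A and 42.6% of that of RAB1B.

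The SNAREs, which drive fusion with the Golgi, changed little. With siZIP7_1, BET1 rose and STX5 fell, and the other 4 were not past the threshold. BET1 was 14.9, 15.3 and 17.9 CPM with siNC, 20.4, 19.7 and 19.5 CPM with siZIP7_1 and 14.7, 13.9 and 16.1 CPM with siZIP7_2, at log2 fold changes of 0.30 (SE 0.078, edgeR adjusted p = 0.00107) and -0.11 (SE 0.081, edgeR adjusted p = 0.204). GOSR1 was 64.7, 59.5 and 61.9 CPM with siNC, 58.3, 64.2 and 59.5 CPM with siZIP7_1 and 40.1, 42.8 and 46.7 CPM with siZIP7_2. Its siZIP7_2 libraries were below all others, with a log2 fold change of -0.52 (SE 0.059, edgeR adjusted p = 3.66e-09), and that of siZIP7_1 was -0.03. SEC22B and YKT6 rose with siZIP7_2 (0.36 and 0.34), beside values of 0.04 and 0.01 with siZIP7_1. STX5, the syntaxin of this fusion step, had -0.20 with siZIP7_1 and -0.09, not past the threshold, with siZIP7_2. The difference of STX5 between the siRNAs (0.11) was lost without any siZIP7_1 library, siZIP7_2 replicate 2 or siZIP7_2 replicate 3 (edgeR adjusted p between 0.0902 and 0.122). GOSR2 passed no threshold (-0.09 and -0.09), although without siZIP7_2 replicate 1 it was lower with siZIP7_2 (-0.14, edgeR adjusted p = 0.0382). No SNARE changed by more than 1.5-fold against siNC.

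The ARF group regulates the COPI coat, and all 5 of its genes rose with siZIP7_1, with ARF1, ARFGAP1 and ARFGAP3 also higher with siZIP7_2. Among genes averaging 10 CPM or more, 36.8% were higher with siZIP7_1 and 35.6% with siZIP7_2. ARFGAP1 and ARFGAP3 make ARF1 hydrolyse its GTP. ARFGAP3 (ENSG00000242247, chr22:42796502-42858106, minus strand) was 43.9, 42.3 and 45.7 CPM with siNC, 61.7, 61.8 and 60.3 CPM with siZIP7_1 and 72.4, 73.3 and 73.2 CPM with siZIP7_2. The groups were ordered with no overlap, siNC lowest and siZIP7_2 highest, at log2 fold changes of 0.48 (SE 0.05, edgeR adjusted p = 1.43e-09) and 0.73 (SE 0.05, edgeR adjusted p = 1.03e-13). ARFGAP1 was 196, 194 and 189 CPM with siNC, 273, 261 and 277 CPM with siZIP7_1 and 318, 297 and 286 CPM with siZIP7_2. Both siRNA groups again stood above siNC, with log2 fold changes of 0.49 (SE 0.048, edgeR adjusted p = 3.12e-10) and 0.64 (SE 0.048, edgeR adjusted p = 6.96e-13).

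ARF1 itself had log2 fold changes of 0.36 and 0.33. ARF4, a GTPase with an overlapping role, was 230.0, 233 and 240.3 CPM with siNC, 287, 310.1 and 282 CPM with siZIP7_1 and 227, 226 and 238 CPM with siZIP7_2. It was higher with siZIP7_1, at 0.32 (SE 0.047, edgeR adjusted p = 5.60e-07), and not past the threshold with siZIP7_2, at -0.03 (SE 0.047, edgeR adjusted p = 0.618). GBF1, which loads ARF1 with GTP, had values of 0.11 and -0.01 (the latter 0.10 with upper-quartile scaling, edgeR adjusted p = 0.0384), and its call with siZIP7_1 was lost without siNC replicate 3, siZIP7_1 replicate 1 or siZIP7_1 replicate 3, at edgeR adjusted p-values between 0.057 and 0.12. Its difference between the siRNAs (-0.12) was lost without siZIP7_1 replicate 1 (edgeR adjusted p = 0.0649). That difference was also lost with DESeq2 (DESeq2 adjusted p = 0.0662). The same held with DESeq2 size factors, upper-quartile scaling, at least 10 counts in every library or 2 groups only (edgeR adjusted p between 0.0506 and 0.410).

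In the COPI coat, 6 of 9 genes rose and 2 fell with siZIP7_1, and 1 rose and 7 fell with siZIP7_2. Beside this, 36.8% of genes averaging 10 CPM or more rose and 44.1% fell with siZIP7_1, and 35.6% and 49.8% with siZIP7_2. ARCN1 (ENSG00000095139, chr11:118572390-118603033, plus strand), the delta subunit, was 408, 406 and 406 CPM with siNC, 528, 564 and 514 CPM with siZIP7_1 and 138, 145 and 139 CPM with siZIP7_2. The siZIP7_2 libraries lay far below siNC, at 0.346 of its level, and the siZIP7_1 libraries were all above it. Log2 fold changes were 0.40 (SE 0.046, edgeR adjusted p = 8.81e-09) and -1.53 (SE 0.048, edgeR adjusted p = 1.28e-21), and the log2 difference of -1.93 (SE 0.048, edgeR adjusted p = 3.30e-24) was the lowest among the 56 genes. COPB2, the beta prime subunit, was 169, 162 and 164 CPM with siNC, 249, 256 and 237 CPM with siZIP7_1 and 121, 117 and 117 CPM with siZIP7_2, with the same order and log2 fold changes of 0.58 and -0.48.

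COPB1 and COPZ1, the beta and zeta subunits, also rose with siZIP7_1 (0.19 and 0.28) and fell with siZIP7_2 (-0.62 and -0.59). COPG1 rose with both (0.47 and 0.22). COPE rose with siZIP7_1 (0.31) and was not past the threshold with siZIP7_2 (0.05). COPA, the alpha subunit, had 0.03, not past the threshold, and -0.11. The latter call was lost with upper-quartile scaling, where its sign crossed 0, and when siNC replicate 1, siNC replicate 3, siZIP7_2 replicate 1 or siZIP7_2 replicate 2 was left out, at edgeR adjusted p-values between 0.07 and 0.147. It was also lost with DESeq2, DESeq2 size factors, at least 10 counts in every library and 2 groups only. The coat is built from equal copies of its subunits, and their RNAs did not share a size of change: with siZIP7_2 they ran from -1.53 for ARCN1 to 0.22 for COPG1.

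The alternative subunits COPG2 and COPZ2 fell with both siRNAs. COPG2 was 49.6, 46.4 and 49.0 CPM with siNC, 32.5, 35.2 and 29.4 CPM with siZIP7_1 and 20.5, 19.7 and 20.5 CPM with siZIP7_2. Each siRNA group lay below siNC with no overlap, at log2 fold changes of -0.58 (SE 0.062, edgeR adjusted p = 1.72e-09) and -1.26 (SE 0.065, edgeR adjusted p = 1.72e-16). COPZ2, the least abundant of the 56 genes, was 1.60, 1.25 and 1.42 CPM with siNC, 0.437, 0.378 and 0.439 CPM with siZIP7_1 and 0.660, 0.822 and 0.615 CPM with siZIP7_2, where the smallest count was 11 reads. Its log2 fold changes were -1.76 (SE 0.26, edgeR adjusted p = 7.09e-07) and -1.02 (SE 0.24, edgeR adjusted p = 3.45e-04). The difference between the siRNAs in COPZ2, 0.75, was lost without siZIP7_1 replicate 2 or siZIP7_2 replicate 2 (edgeR adjusted p = 0.0755 and 0.109). It was also lost without a filter (edgeR adjusted p = 0.0655) and with DESeq2 (DESeq2 adjusted p = 0.0562).

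The KDEL receptors catch ER proteins that have escaped and return them in COPI vesicles. KDELR2 was 184, 205 and 209 CPM with siNC, 201, 215 and 198 CPM with siZIP7_1 and 244, 243 and 256 CPM with siZIP7_2, and KDELR3 was 21.7, 20.2 and 21.1 CPM with siNC, 16.1, 14.9 and 15.5 CPM with siZIP7_1 and 19.4, 18.9 and 20.4 CPM with siZIP7_2. KDELR2 lay above the siNC range in every siZIP7_2 library, at a log2 fold change of 0.31 (SE 0.051, edgeR adjusted p = 2.59e-06), while with siZIP7_1 it was 0.04 (SE 0.051, edgeR adjusted p = 0.531). KDELR3 was below it with siZIP7_1, at -0.44 (SE 0.07, edgeR adjusted p = 2.16e-06), and overlapped it with siZIP7_2, at -0.10 (SE 0.068, edgeR adjusted p = 0.170). KDELR1 rose with both siRNAs (0.18 and 0.21).

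Levels can be set beside each other between genes only per length, here as CPM per kilobase of the union of exons. In siNC they ran from 0.768 ± 0.0950 for COPZ2 to 183 ± 3.04 for ARF1 (SD, n = 3). Among paralogues, SEC24C made up 59.4 ± 0.899% of the SEC24 level in siNC, 67.9 ± 1.47% with siZIP7_1 and 62.8 ± 0.959% with siZIP7_2. The share of COPG2 in the COPG pair was 21.5 ± 0.746% in siNC, 11.7 ± 0.879% with siZIP7_1 and 8.97 ± 0.0514% with siZIP7_2. Thus COPG1 came to hold more of the pair in both siRNA groups, with ranges over the libraries that did not overlap.

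SEC23B held 49.7 ± 1.69% of the SEC23 level in siNC, 61.6 ± 0.410% with siZIP7_1 and 63.0 ± 1.18% with siZIP7_2. Which of the SEC23 paralogues was the larger depended on the length used, since with the longest coding transcript SEC23B held 37.0 ± 1.57% in siNC, 48.8 ± 0.433% and 50.3 ± 1.26%. Both lengths showed a higher share of SEC23B with each siRNA than in siNC. SAR1A held 84.9 ± 0.598%, 90.0 ± 0.482% and 85.8 ± 0.747% of the SAR1 level in siNC, siZIP7_1 and siZIP7_2. KDELR1 held 69.0 ± 1.24%, 72.1 ± 0.514% and 68.4 ± 0.463% of the KDEL receptor level in the same order.

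**Figure D5:**
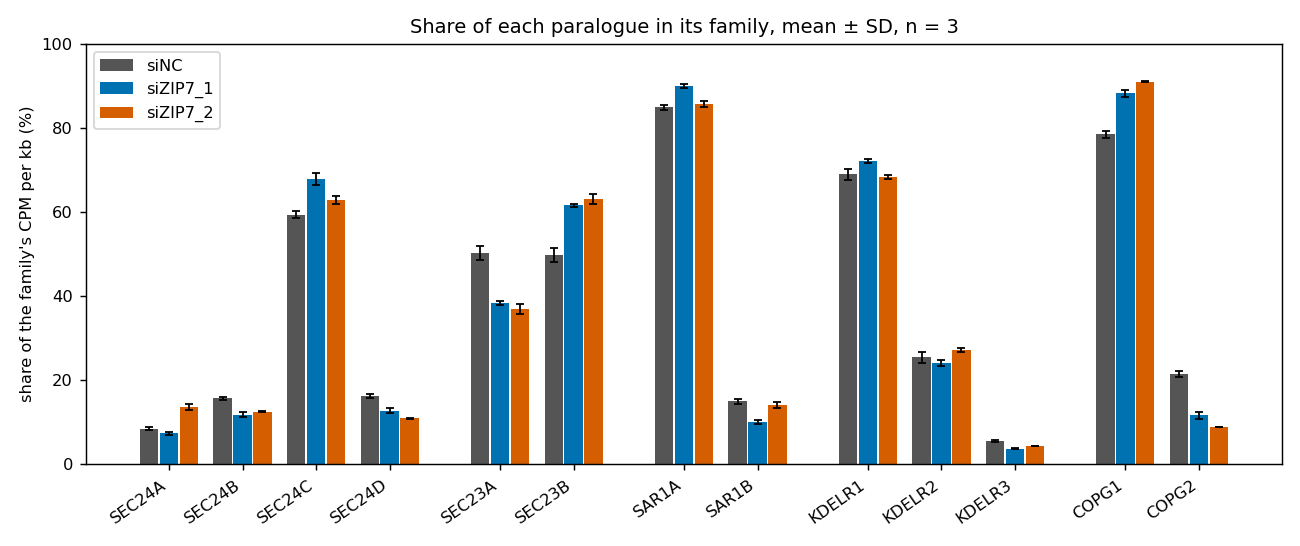
Share of each paralogue in its family's level per length (y axis, percent of CPM per kilobase of exon) with siNC, siZIP7_1 and siZIP7_2; bars are means and lines SD over 3 libraries. COPG2 falls from 21.5% to 11.7% and 8.97%, and SEC23B goes from 49.7% to 61.6% and 63.0%.

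A further list held 94 other genes of the pathway, of which 91 passed the low-count filter (SEC16B, TMED6 and LMAN1L did not). With siZIP7_1 47 were higher and 24 lower, with siZIP7_2 24 were higher and 43 lower, and 19 were higher and 54 lower with siZIP7_2 than with siZIP7_1. These calls are 78.0%, 73.6% and 80.2% of the 91 genes, beside 70.7%, 77.8% and 78.7% of all genes. The largest falls with siZIP7_1 were in SRPRA, the receptor subunit for the signal recognition particle, and RER1, a retrieval receptor. SRPRA was at 232 ± 2.95 CPM in siNC, 65.1 ± 2.85 CPM after siZIP7_1 and 240.0 ± 9.40 CPM after siZIP7_2 (± SD over 3 libraries), at log2 fold changes of -1.83 (SE 0.049, edgeR adjusted p = 3.49e-23) and 0.05 (SE 0.046, edgeR adjusted p = 0.322). RER1 had -1.15 and 0.02, so that, as for LMAN1, the fall was seen with siZIP7_1 and the value with siZIP7_2 was not past the threshold. Another annotated gene covers 26.0% of the exonic length of RER1. The highest values with siZIP7_1 were those of SEC31B (1.25), a paralogue of SEC31A, and COG6 (1.12), a subunit of a Golgi tether.

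With siZIP7_2 the lowest were TRAPPC9 and COG4, subunits of tethers, at -1.26 and -1.18, while both were higher with siZIP7_1 (0.94 and 0.18). TRAPPC9 was at 27.8 ± 0.780 CPM in siNC, 53.4 ± 2.76 CPM after siZIP7_1 and 11.6 ± 0.511 CPM after siZIP7_2 (± SD over 3 libraries), and its log2 difference between the siRNAs, -2.20 (SE 0.065, edgeR adjusted p = 2.00e-22), was larger than that of any of the 56 genes. TRAPPC6B and NAPA, the latter an adaptor that takes SNAREs apart, were the highest with siZIP7_2 (0.90 and 0.68) and were also higher with siZIP7_1 (0.99 and 0.69). Other annotated genes cover 29.8% of the exonic length of NAPA.

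The transcription factors known to act on these genes were measured as total RNA of each gene, which does not show whether XBP1 was spliced or ATF6 cleaved. XBP1 fell with both siRNAs, from a level of 167 ± 4.79 CPM down to 101 ± 1.19 CPM after siZIP7_1 and 120.3 ± 3.29 CPM after siZIP7_2 (± SD over 3 libraries), at log2 fold changes of -0.72 (SE 0.045, edgeR adjusted p = 1.82e-14) and -0.47 (SE 0.045, edgeR adjusted p = 1.46e-10). CREB3L1 also fell with both (-0.40 and -0.22). ATF6 and CREB3L2 rose with siZIP7_1 (0.24 and 0.48) and fell with siZIP7_2 (-0.41 and -0.58), the same order of groups as in ARCN1, SEC31A and COPB2. That order, with a direct difference, was called for 9.4% of all genes and 12.5% of those averaging 10 CPM or more. Whether these factors acted on the coat genes was not tested. CREB3 rose with siZIP7_1 (0.42) and was at 0.04 with siZIP7_2, not past the threshold.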

How the data were processed

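Single-end reads of 9 libraries were processed by the authors, who deposited the raw count of each Ensembl gene without normalization. The submitters' processing notes name Trim Galore 0.4.1, FastQC 0.11.2, STAR, HTSeq 0.6.1 and DESeq2 1.16.1. The genome build and the strand setting are not given in the sources used here. Of 58395 identifiers, 58275 were found in GENCODE release 29 of GRCh38.

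Summary lines were left out: reads on no gene were 7.43% to 11.5% and ambiguous reads 2.66% to 2.91% of the total. Counts were analysed with edgeR 4.0.16 in R 4.3.3 (TMM, low-count filter over groups, 1 quasi-likelihood fit to all libraries, Benjamini-Hochberg adjustment over 16761 genes, threshold 0.05). The method was also run on simulated counts in which few genes were changed. Most genes were called in these data, so that run cannot speak for the scaling or the calls here. The standard error was the log2 fold change divided by the square root of F. The biological coefficient of variation was 4.50%. A floor of 3 counts lies between 0.0985 and 0.124 CPM and covers counting error only. Transfections were in triplicate per the study, in a single line, and p-values measure the spread between these libraries. No batch was named. One marker gene is not reported here.

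The genes and lists were chosen with earlier results of these data known, and ACGTG was added to the motif search later. Named with values in every library were SLC39A7 and, in each complex, the gene with the largest change past the threshold in each comparison, and named by their fold changes were, of the other pathway genes, the 2 highest and 2 lowest in each comparison with siNC and the 5 regulators. COPB2, SAR1A and COPG2 were added after their values were seen. Alternatives were DESeq2 1.42.0, DESeq2 size factors, upper-quartile scaling, no filter, at least 10 counts in every library, glmTreat at 1.5-fold, 2 groups only, a replicate block, each library left out and another gene length.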

Additional observations from a re-analysis of the deposited data

Results flagged for a closer look

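A total of 17 genes are listed because each passed edgeR's threshold in opposite directions with siZIP7_1 and siZIP7_2 and the direct test of the difference passed too, as did 18.7% of all 16761 genes tested and 23.3% of those averaging 10 CPM or more. The siRNAs share the siNC libraries, whose level enters both comparisons, whereas the direct difference does not use them. Log2 differences of siZIP7_2 from siZIP7_1 were positive for TMED10 (1.45), SURF4 (1.36), MCFD2 (1.35), SEC61A1 (0.90) and SEC61B (0.58). They were negative for ARCN1 (-1.93), SEC31A (-1.19), COPB2 (-1.06), SEC23IP (-1.01) and SAR1A (-0.96). They were also negative for USO1 (-0.90), COPZ1 (-0.87), SEC23A (-0.87), COPB1 (-0.81) and PREB (-0.58), and smallest for RAB1B (-0.41) and SEC16A (-0.25). With upper-quartile scaling SEC61B, RAB1B and SEC16A each lost a call against siNC, so the length of the list depends on the scaling. The depth of the knockdown moved with the same groups, since SLC39A7 was lower with siZIP7_2 (log2 difference -0.89), and its part in these differences was not tested.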

How the results depend on the processing

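Of 1470 values for 35 named genes under the alternatives, 1386 kept their direction and side of the threshold. Most of these genes were picked for the largest changes of their group, which are the least likely to cross the threshold. The share therefore does not describe the 56 genes. Tested with glmTreat against 1.5-fold, 4636 genes passed with siZIP7_1 (2322 higher, 2314 lower), 6420 with siZIP7_2 (3351 and 3069) and 6810 between the siRNAs (3485 and 3325), and of the 56 genes 3 and 5, 3 and 5, and 5 and 10, because that test asks for a larger change. Upper-quartile scaling moved the median of all genes by 0.11 with siZIP7_2, and 29 of the 56 genes were then higher and 16 lower. Calls lost without a filter included those of SEC61G and LMAN2 with siZIP7_2 and of SEC63, STX5 and ARFGAP1 between the siRNAs. With each library left out, 29 to 31 of the 56 genes were higher and 11 to 12 lower with siZIP7_1, 23 to 24 and 16 to 19 with siZIP7_2, and 15 to 17 and 27 to 29 between the siRNAs. For the complexes, 390 median log2 fold changes were obtained under the alternatives other than glmTreat. Of these, 330 stayed within the spread between libraries and 60 moved by more. That spread was the larger SD of the complex's median log2 CPM in the groups compared.

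The sign changed under some alternative other than leaving out a library for 3 of the 56 genes with siZIP7_1, 13 with siZIP7_2 and 9 between the siRNAs, and when single libraries were left out for 6, 5 and 5. Of these COPA with siZIP7_2 had been called, and all had been within 0.106 of 0. Among the genes named with values in every library, the regulators and the extremes of the other pathway genes, they were, with siZIP7_2 against siNC, ARF4 (0.00615 with DESeq2 size factors, 0.00612 with DESeq2, 0.0801 with upper-quartile scaling, 0.0482 with at least 10 counts in every library), LMAN1 (0.0218), KDELR3 (0.00334) and COG6 (0.0177) with upper-quartile scaling, and SEC62 (-0.0454), SRPRA (-0.00136), RER1 (-0.0344) and CREB3 (-0.00965) without a filter. Between the siRNAs they were GOLGA2 (-0.0466 without a filter) and NAPA (0.0174 with DESeq2 size factors and with DESeq2, 0.0626 with upper-quartile scaling, 0.0336 with at least 10 counts, 0.00328 in a fit to 2 groups). In the same genes leaving out single libraries turned KDELR2 with siZIP7_1 (-0.0199 to 0.0839), SEC62 (-0.0697 to 0.0683) and RER1 (-0.00897 to 0.0432) with siZIP7_2 and GOLGA2 between the siRNAs (-0.0324 to 0.0243). The cause was not tested. With the longest coding transcript the siNC shares were 50.7% for SEC24C, 63.0% for SEC23A, 79.9% for SAR1A and 79.9% for COPG1.

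The replicate numbers in the labels are shared across groups, but the correlations of same-numbered libraries were between -0.0493 and 0.0754 (9 pairs, mean 0.0115), so they were not taken as pairs. With the replicate block 31 of the 56 genes were higher and 12 lower with siZIP7_1, 24 and 19 with siZIP7_2, and 17 and 28 between the siRNAs. TMED2 with siZIP7_1 then passed (0.12, edgeR adjusted p = 0.0354), and no other call among the 56 changed. Depth limits COPZ2 most, with 11 reads in its smallest library.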
